A study of Mus musculus with 46 samples.

Results

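The genes of retinoic acid synthesis, transport and reception described here are Aldh1a3, Aldh1a1, Aldh1a2, Rdh10, Dhrs3, Rbp4, Crabp2, Rara and Rarb, which are 9 of the 55487 genes in each expression table. They were chosen by gene symbol, with earlier results of these data known. RNA was read in 46 mouse libraries that fall into 11 groups and 3 experiments. The first experiment holds islets with the genotypes Tfam control (5 libraries from females, 3 from males) and Tfam KO (4 from females, 2 from males). In the second, islets labelled Clec control were on RFD (4) or HFD (6), and islets labelled Clec KO were on RFD (4) or HFD (5). The third holds livers with the genotypes control (6), Mfn DKO (4) and Tfam KO (3), whose sample names carry the letters AAV. The labels do not write out RFD or HFD, and give no age, no strain and no promoter or Cre line. They give no sex for the Clec16a islets or the livers. Tfam is needed to transcribe and package mitochondrial DNA, Clec16a takes part in clearing damaged mitochondria, and the mitofusins Mfn1 and Mfn2 fuse mitochondria.

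Retinol travels in blood bound to the carrier that Rbp4 encodes, and in cells it is oxidised to retinal, mainly by the enzyme of Rdh10, while the reductase of Dhrs3 turns retinal back into retinol. The 3 retinal dehydrogenases ALDH1A1, ALDH1A2 and ALDH1A3 make retinoic acid, which CRABP2 carries to receptors such as RARA and RARB that switch genes on at DNA elements made of repeated core sites. Liver stores vitamin A in stellate cells and secretes RBP4 from hepatocytes, and in islets ALDH1A3 is widely used as a marker of beta cells that have lost maturity.

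The genes lie on 8 chromosomes of GRCm38 and all are annotated as protein coding. Aldh1a3 spans positions 66390890 to 66427517 on the minus strand of chromosome 7, and Dhrs3 spans 144892827 to 144928209 on the plus strand of chromosome 4. Rara spans 98927818 to 98974942 on the plus strand of chromosome 11. RefSeq promoter windows (GRCm38.p6, 250 bases before to 50 after a start site) were found for 6 of the 9 genes, and not for Aldh1a3, Crabp2 or Rdh10. The windows were searched on both strands for the retinoic acid response elements named DR5 and DR2, in which the core site is repeated after 5 or 2 bases. A DR5 match was present in 32 of 32851 windows of all genes (0.0974%), and among the 6 genes only in the window of Rarb. A DR2 match was present in 0.268% of all windows and in none of the 6. The 150 bases before a start site are shown for Rarb, because Rarb is a textbook target of retinoic acid. The DR5 match is in capitals (bases 53 to 37 before the start). That start site lies inside the gene, which spans 16430839 to 16819156 on the minus strand of chromosome 14. The 150 bases before the start site of Dhrs3, which hold neither match, are shown because its RNA rose in every islet comparison of KO with control.
Rarb promoter, chr14:16575477-16575626, minus strand: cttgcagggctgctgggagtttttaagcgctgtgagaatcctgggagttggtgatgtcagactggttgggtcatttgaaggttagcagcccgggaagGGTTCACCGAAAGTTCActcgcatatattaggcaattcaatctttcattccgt
Dhrs3 promoter, chr4:144892677-144892826, plus strand: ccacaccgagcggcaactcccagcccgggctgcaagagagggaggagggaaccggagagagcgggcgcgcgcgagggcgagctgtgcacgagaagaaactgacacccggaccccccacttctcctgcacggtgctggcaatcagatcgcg

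The lowest and highest total counts of a library were 55223041 and 83342809 for Tfam islets, 16235173 and 55810879 for Clec16a islets, and 41961114 and 56894510 for livers. Levels are given below as CPM, counts relative to the library's total after scaling within its experiment, and between genes or tissues as the authors' TPM, which also allow for gene length. Tfam RNA was 37.8 to 44.7 CPM in Tfam control islets and 16.0 to 18.9 in Tfam KO islets, and Tfam, Mfn1 and Mfn2 were likewise lower in the livers named for them. Clec16a RNA was 20.9 to 31.8 CPM in the islets labelled control and 23.4 to 32.9 in those labelled KO, so counts over the whole gene did not separate these labels, and the groups are called by their labels throughout. Islet libraries held summed beta cell markers (14 genes) of 107408 to 351820 CPM against 104 to 502 in livers, and hepatocyte markers (7 genes) were 22692 to 130562 CPM in livers against 31.2 to 205 in islets. One library stood apart from its group: replicate 4 of the islets labelled KO on HFD had control-like levels of several genes below. The tests of KO against control on HFD are given with and without it for Aldh1a3, Dhrs3 and Rara. For Rarb, the cell type markers and the further retinoid genes they are given only with it. In the livers, replicate 2 of Tfam KO had the lowest hepatocyte marker sum and the largest scaling factor (1.43, against 0.862 to 1.16 in the other livers).

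The family of retinal dehydrogenases was used differently in the 2 tissues. In livers Aldh1a1 made up 99.1% to 99.9% of the summed Aldh1a1, Aldh1a2 and Aldh1a3 TPM in every library. In Clec16a control islets Aldh1a3 held the largest median share, 59.3% on RFD and 57.6% on HFD of a sum of at most 2.19 TPM. In islets labelled Clec16a KO the median share of Aldh1a3 was 98.3% on both diets, with 52.6% in replicate 4 on HFD. In Tfam KO islets of females the median share was 53.8% for Aldh1a1 and 32.98% for Aldh1a3, against 22.3% and 65.6% in Tfam control islets of females. The Aldh1a3 share ran from 25.7% to 51.3% in female KO libraries, of a sum of at most 2.96 TPM. In males it was 32.8% to 52.4% in KO and 66.6% to 86.4% in control libraries. Which of the 2 was larger thus differed between KO libraries.

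Over the 11 groups, mean Aldh1a3 TPM was 58.0 in the islets labelled Clec16a KO on HFD and 51.1 in those on RFD, with overlapping ranges. The next group in order, Tfam KO islets of males, had a mean of 2.91 TPM, and its range of 1.93 to 3.89 lay below every RFD KO library (9.80 to 123). From there down to control livers (0.400 TPM) each group's range overlapped that of its neighbour in the order. Aldh1a1 was 605 TPM in control livers, 565 in Mfn DKO livers and 383 in Tfam KO livers, and at most 3.38 TPM in any islet library. Rbp4 was 6532 to 7282 TPM in the 3 liver groups and 191 to 382 in the 8 islet groups. Dhrs3 was 147 TPM in Mfn DKO livers, a range clear of the next groups, and 80.6 to 84.8 in the other livers. In islets its group means were 2.65 to 9.94 TPM. Mean Rdh10 TPM was 14.6 to 18.6 in the liver groups and 3.91 to 7.53 in the islet groups. Mean Rara TPM lay between 6.05 and 13.8 in all groups, with ranges that overlapped from each group to the next. Mean Rarb TPM was 1.03 to 1.68 in livers and 0.063 to 0.454 in islets. Crabp2 stayed at or below 0.226 TPM in every library.

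**Figure D1:**
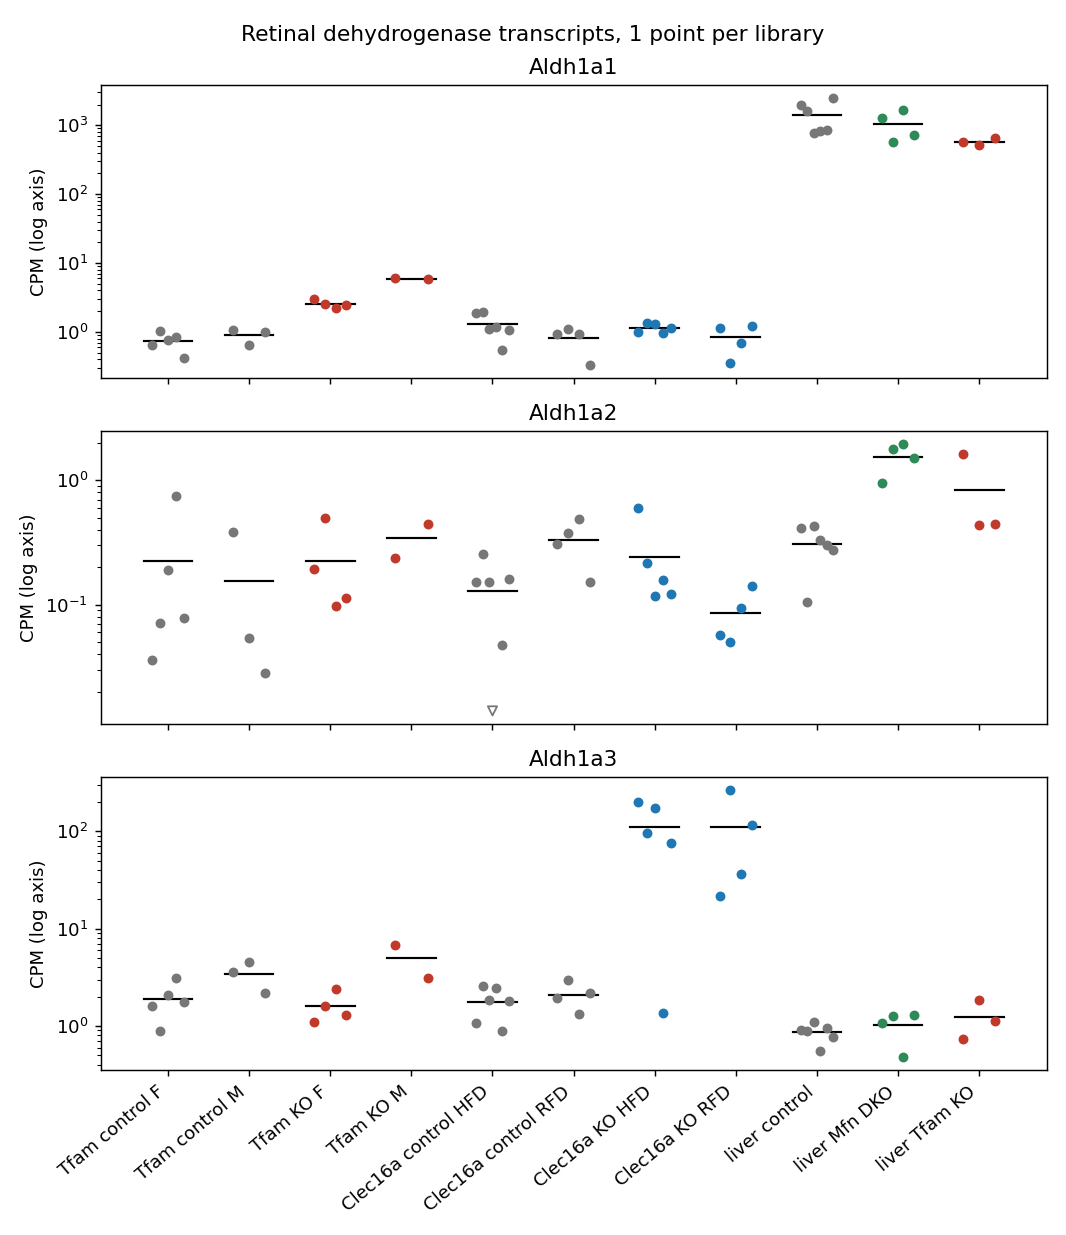
Aldh1a1, Aldh1a2 and Aldh1a3 in CPM on log axes, 1 point per library in 11 groups, with black bars for group means and an open triangle at the bottom for a library with 0 counts. Aldh1a3 lies between 21.4 and 267 CPM in the 4 RFD libraries labelled Clec16a KO and between 76.6 and 199 in 4 of the 5 HFD ones, with the fifth at 1.36, while Aldh1a1 is far higher in livers than in islets.

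Aldh1a3 rose in islets labelled Clec16a KO on both diets, with the largest fold change of the 8 genes tested. On RFD, the control libraries had 1.92, 2.96, 1.32 and 2.21 CPM and those labelled KO had 21.4, 267, 36.6 and 115.8 CPM. Every KO library was above every control library, and the KO libraries differed widely among themselves. The group means were 2.10 ± 0.682 and 110.2 ± 112 CPM (SD, n = 4 each). The fitted log2 fold change was 5.66 (SE 0.980), a 50.7-fold difference, with an adjusted p of 0.00358 by the quasi-likelihood test of edgeR with Benjamini-Hochberg adjustment. Genes are said to be called where the adjusted p was at most 0.05. On RFD 3 of the 8 genes tested were called, against 7.52% of all 17254 genes tested. That share stands for 1298 genes, which became 523 without control replicate 3, 595 without control replicate 4, and 741 to 838 without control replicate 1 or KO replicate 2, 3 or 4.

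On HFD the 6 control libraries had 0.879 to 2.61 CPM of Aldh1a3 (median 1.83), and those labelled KO had 199, 96.8, 175, 1.36 and 76.6 CPM. Replicate 4 of the KO group, at 1.36 CPM, lay inside the control range, while the other 4 lay far above it. The means were 1.77 ± 0.697 (SD, n = 6) and 109.7 ± 79.4 CPM (SD, n = 5). The log2 fold change was 5.93 (SE 0.827), a 60.9-fold difference, with an adjusted p of 0.000345, and it was 6.25 (SE 0.570, adjusted p 2.56e-07) without replicate 4. On HFD 3 of the 8 genes were again called, against 9.57% of all genes. Those 1652 genes became 3369 without replicate 4, and 786 to 1049 without KO replicate 1, 2 or 3 or control replicate 5. Within sequencing lanes, read from the file names, the difference of mean log2 CPM on RFD was 4.201 in lane 7 (3 KO, 2 control) and 7.23 in lane 8 (1 KO, 2 control). On HFD it was 6.11 in lane 7 (2 KO, 3 control) and 4.14 in lane 8, which held replicate 4 (3 and 3).

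Dhrs3, the enzyme that returns retinal to retinol, also rose in the islets labelled Clec16a KO. On RFD the controls had 5.22, 7.02, 6.08 and 7.16 CPM and the KO libraries 8.001, 10.5, 9.72 and 13.3 CPM, with no overlap. The log2 fold change was 0.71 (SE 0.195, adjusted p 0.0317 by edgeR). This call was lost in 6 of 8 fits that each left out 1 library of these groups: without control replicate 1, 3 or 4 or KO replicate 2, 3 or 4 (adjusted p 0.0511 to 0.115). On HFD the controls had 6.82 to 8.38 CPM (median 7.90) and the KO libraries 16.1, 14.7, 10.9, 7.33 and 12.6 CPM. Replicate 4 was the 1 KO library inside the control range. The log2 fold change was 0.66 (SE 0.166, adjusted p 0.0158), or 0.80 (adjusted p 0.00034) without replicate 4. It was 0.55 (adjusted p 0.0637) without KO replicate 1 and 0.59 (adjusted p 0.0572) without KO replicate 2. Within lanes the RFD difference of mean log2 CPM was 0.73 and 0.67, and the HFD difference 0.86 and 0.46, in lanes 7 and 8.

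Rara, the receptor gene found in most tissues, fell in the islets labelled Clec16a KO. On RFD the controls had 23.1, 21.5, 31.7 and 26.7 CPM and the KO libraries 19.3, 11.4, 9.46 and 9.29 CPM, so every KO library was below every control library in CPM. In the authors' TPM the RFD groups overlapped, at 4.63 to 9.34 in KO and 8.98 to 16.0 in control libraries. On RFD Rara fell by 1.08 on the log2 scale (SE 0.243, adjusted p 0.0119 by edgeR), which is 2.11-fold lower. On HFD the controls had 21.7 to 36.1 CPM (median 24.4) and the KO libraries 11.2, 10.3, 9.74, 20.1 and 13.7 CPM. Again all KO libraries were below all controls, and replicate 4 was the nearest to them. On HFD it fell by 1.02 (SE 0.209, adjusted p 0.00464), and by 1.24 (adjusted p 0.000158) without replicate 4. Within lanes 7 and 8 the RFD difference of mean log2 CPM was -0.90 and -1.35, and the HFD difference -1.25 and -0.86.

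The other receptor and enzyme genes did not pass the test in the islets labelled Clec16a KO. Rarb was 1.09, 1.204, 0.991 and 1.18 CPM in the RFD KO libraries and 0.230, 0.535, 1.23 and 0.483 CPM in their controls (adjusted p 0.238). All KO values were above 3 of the 4 controls and below control replicate 3. On HFD Rarb was 0.288 to 0.967 CPM in KO and 0.267 to 0.608 in control libraries (adjusted p 0.417), with replicate 4 the lowest of the KO group. Aldh1a1 was 0.351 to 1.22 CPM in RFD KO and 0.330 to 1.09 in RFD control libraries (adjusted p 0.944), and Rdh10 was 6.86 to 9.44 and 7.18 to 10.1 CPM (adjusted p 0.811). The genotypes overlapped for both, and neither was called on HFD (adjusted p 0.848 and 0.992). Aldh1a2 was at most 17 counts in any Clec16a library (adjusted p 0.148 on RFD and 0.438 on HFD). Rbp4 was 178 to 197 CPM in RFD KO and 200.3 to 317 in RFD control libraries, which did not overlap, with an adjusted p of 0.163. In the authors' TPM these groups did overlap, at 281 to 317 in RFD KO and 272 to 480 in RFD control libraries. Crabp2 was at 0 counts in 15 of the 19 libraries and did not pass the filter on low counts in any comparison.

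**Figure D2:**
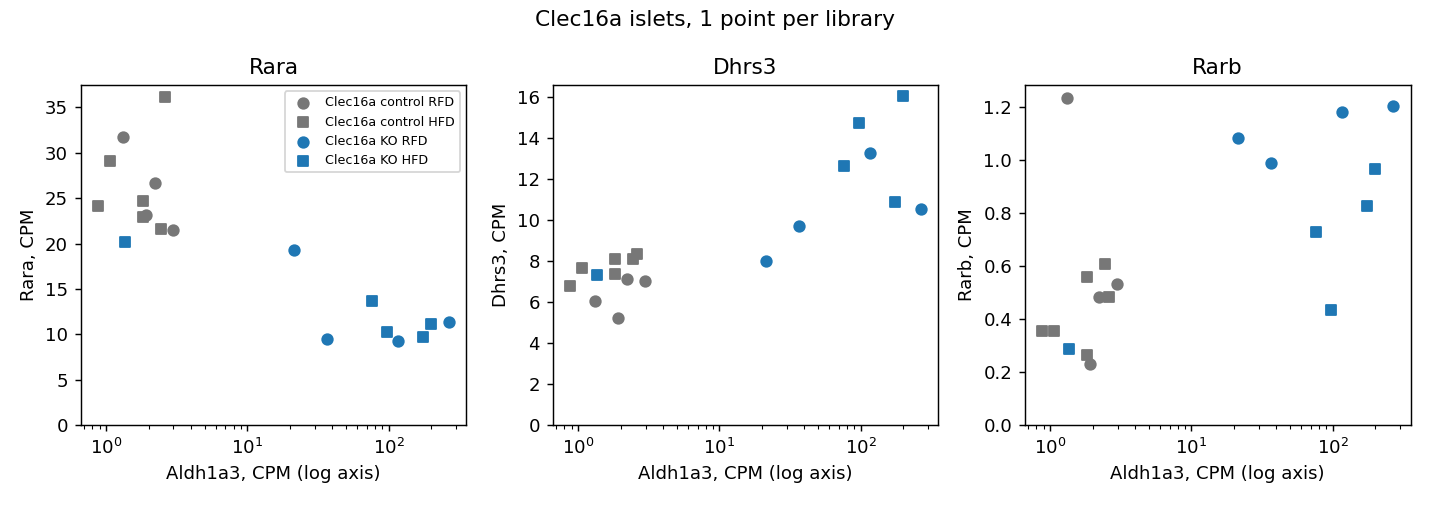
Rara, Dhrs3 and Rarb in CPM against Aldh1a3 in CPM on a log axis, 1 point per library of the 19 Clec16a islet libraries, grey for control, blue for KO, circles for RFD and squares for HFD. The single blue square among the grey points is replicate 4 on HFD, at 1.36 CPM of Aldh1a3 and 20.1 of Rara.

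Over the 19 Clec16a libraries, which share the split between genotypes, Pearson's r of log2 CPM with Aldh1a3 was 0.86 for Dhrs3, -0.90 for Rara and 0.65 for Rarb. Within the 9 libraries labelled KO it was 0.75, -0.76 and 0.66, and replicate 4 is at one end of each. Without replicate 4 the values in the other 8 KO libraries were 0.60, -0.54 and 0.01. The relation with Rarb within KO thus rests on that library, and those with Dhrs3 and Rara were weaker without it. None of these correlations was tested against 0. The 5 other genes most like Aldh1a3, of 10995 with a mean of at least 5 CPM, were Rasgrf2 (r 0.971), Gm2115 (0.970), Slc7a3 (0.970), Fam129a (0.969) and Smoc1 (0.965). Within the KO libraries their r was between 0.915 and 0.965, and between 0.594 and 0.873 without replicate 4. Slc7a3, an importer of basic amino acids, was 0.663 to 1.27 CPM in the controls and 12.97 to 38.2 CPM in the RFD KO libraries. In replicate 4 on HFD it was 0.969 CPM, as low as in the controls, against a highest HFD KO value of 48.1. The 5 genes were picked by r over these same 19 libraries, replicate 4 included. That choice favours a high r within KO and a low value in replicate 4. Over the 14 Tfam islet libraries the r of these 5 genes with Aldh1a3 was 0.085 to 0.536.

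Other cell types' markers moved with genotype in these islets, and their part in the results was not tested. Of all genes tested, 7.52% were called on RFD and 9.57% on HFD, in either direction. Of 7 endothelial markers, 5 were called higher and 1 (Lyve1) lower in KO on each diet. Their summed level was 350 to 386 CPM in RFD control and 575 to 697 in RFD KO libraries, and on HFD 329 to 436 and 377 to 665, with 377 in replicate 4. Of 9 fibroblast and stellate markers, 2 were called higher on RFD and 4 on HFD, with sums of 47.6 to 59.1 and 58.9 to 106 CPM on RFD and 41.1 to 77.9 and 65.6 to 116 on HFD. Of the 4 mesothelial markers Wt1 and Lrrn4 had at most 1 count in any Clec16a library. The other one of weight, Msln, was 48.7 to 102 CPM in RFD control and 7.26 to 18.1 in RFD KO libraries. On HFD the mesothelial sum was 37.2 to 131 CPM in control libraries, 2.62 to 16.2 in 4 KO libraries and 92.8 in replicate 4. The beta cell list had 6 of 14 genes called lower on each diet, with sums of 213850 to 351820 CPM in RFD control and 198427 to 231734 in RFD KO libraries. On HFD they were 236234 to 342741 and 140128 to 253104, with 253104 in replicate 4. Of the duct markers Spp1 was called higher on each diet, with duct sums of 343 to 389 CPM in control and 372 to 532 in KO libraries on RFD, and 309 to 431 and 268 to 439 on HFD. Of the macrophage markers C1qa was called lower on each diet, with sums of 141 to 176 and 92.8 to 137.5 CPM on RFD, and 100.1 to 175 and 92.6 to 146 on HFD. Apoa1, a hepatocyte marker, was called lower on HFD. No alpha, delta or acinar marker was called on either diet. In bulk islets, fewer cells of a type and less RNA per cell cannot be told apart. With a score of 12 acinar markers as a covariate, the log2 fold change of Aldh1a3 was 5.54 on RFD and 5.88 on HFD (adjusted p 0.00367 and 0.000585). That score covers acinar cells only, and not the cell types whose markers were called.

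Diet itself gave no call among the genes described. In Clec16a control islets 0 of 8 were called for HFD against RFD, where 0.0406% of all genes were called, and 2 had an unadjusted p under 0.05. Those were Rbp4, at 119 to 212 CPM on HFD and 200.3 to 317 on RFD, and Aldh1a2. In islets labelled KO 0 of 8 were called (0.0116% of all genes) and 0 had an unadjusted p under 0.05. The genotype by diet term called 0 of the 8 and 0% of all genes in edgeR. Under an unadjusted p of 0.05 it had 406 genes, among them 1 of the 8 (Aldh1a2), and the Wald test of DESeq2 called 20 genes. For Aldh1a3 the 2 diets' KO effects differed by 0.26 on the log2 scale (SE 1.17, adjusted p 0.9999 by edgeR), so a difference of several fold was not detectable. Without replicate 4 this difference was 0.59 (SE 0.810), and the change of Aldh1a3 from RFD to HFD in KO islets was 0.32 (SE 0.511, adjusted p 0.972). Aldh1a2 then no longer passed the filter on low counts, and 0 of the genes still tested were called in either comparison. From RFD to HFD in KO islets Dhrs3 then changed by 0.38 (SE 0.154, unadjusted p 0.024, adjusted p 0.564 by edgeR). Of all 16860 genes tested 27 were then called for that change, against 2 with replicate 4. With all libraries, the Wald test of DESeq2 also called 0 of the 8 in the 3 comparisons that involve diet.

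In the Tfam islets the retinal dehydrogenase that rose was Aldh1a1. Female controls had 0.652, 1.03, 0.757, 0.850 and 0.421 CPM and female KO libraries 2.97, 2.51, 2.23 and 2.47 CPM. Male controls had 1.08, 0.643 and 0.994 CPM and male KO libraries 6.05 and 5.89 CPM. Every KO library was above every control library, and both male KO libraries were above all female ones. The log2 fold change over both sexes was 2.14 (SE 0.210), or 4.40-fold, with an adjusted p of 2.35e-06 by edgeR. The lower level in controls corresponds to 32 to 84 counts per library. The difference between the sexes in the KO effect did not pass the test (log2 0.93, SE 0.372, unadjusted p 0.0246, adjusted p 0.709), and 0 of 8 genes and 0% of all genes were called for it. At an unadjusted p under 0.05 there were 1230 genes, with Aldh1a1 the 1 of the 8, and the Wald test of DESeq2 called 34 genes and 0 of the 8.

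Over both sexes 3 of the 8 genes tested were called in the Tfam islets, against 20.9% of all 19752 genes. Dhrs3 was 4.06, 3.17, 5.47, 5.86 and 3.58 CPM in female control and 7.44, 8.64, 5.81 and 4.98 CPM in female KO libraries. In males it was 3.903, 4.09 and 2.69 in control and 9.98 and 7.78 in KO libraries. The groups overlapped in females and not in males. The log2 fold change of Dhrs3 was 0.86 (SE 0.185, adjusted p 0.00319 by edgeR), and the call was present in all 14 fits that each left out 1 library.

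Rara was 14.5 to 16.7 CPM in female control and 12.9 to 13.7 in female KO libraries, without overlap, while in males the controls had 12.7, 11.3 and 14.6 CPM and the KO libraries 10.4 and 11.3, with a gap too narrow to show in these digits. Rara fell by 0.22 on the log2 scale (SE 0.066, adjusted p 0.0248), a change of 1.17-fold that depends on the scaling of library sizes. Without scaling it was -0.01 (adjusted p 0.911), and in the authors' TPM the female means were 8.54 ± 0.304 in KO (SD, n = 4) and 7.42 ± 1.11 in control (SD, n = 5), the opposite order. It was also lost without male KO replicate 1 (adjusted p 0.0696). Without scaling, the median log2 fold change of all genes moved to 0.20 here, to 0.12 in the Clec16a islets on HFD, and to 0.21, 0.46 and 0.25 in the livers for Mfn DKO against control, Tfam KO against control and Tfam KO against Mfn DKO.

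Aldh1a3 did not pass the test in Tfam KO islets. It was 1.61, 0.890, 2.08, 3.09 and 1.76 CPM in female control and 1.10, 1.60, 2.41 and 1.29 CPM in female KO libraries. In males it was 3.59, 4.50 and 2.20 in control and 6.76 and 3.14 in KO libraries (adjusted p 0.927 by edgeR over both sexes). The genotypes overlapped in both sexes, with male KO replicate 1 the highest library. Rdh10 (8.23 to 12.4 CPM in control, 9.28 to 11.99 in KO) and Rbp4 (111 to 246 and 105 to 204 CPM) also overlapped (adjusted p 0.931 and 0.460). In the authors' TPM Rdh10 in females was 7.05 to 8.35 in KO and 4.09 to 6.07 in control libraries, without overlap, while males overlapped. For Rbp4 in TPM females overlapped, and males had 221 to 296 in KO and 177 to 205 in control libraries. Aldh1a2 and Rarb were below 1 CPM in every Tfam islet library (adjusted p 0.702 and 0.920). All 14 beta cell markers were called lower in Tfam KO islets, with sums of 190939 to 297618 CPM in female control and 107408 to 143610 in female KO libraries, and of 256352 to 270764 and 130453 to 131057 in males. Of 9 fibroblast and stellate markers 2 were called higher, where 20.9% of all genes were called in either direction. Their sums were 35.7 to 72.3 CPM in female control and 47.5 to 70.2 in female KO libraries. In males they were 36.9 to 53.5 and 87.1 to 88.5. Of the 2 mesothelial markers tested Msln was called higher. The mesothelial sums were 40.9 to 70.7 CPM in female control and 102 to 149 in female KO libraries, and 44.4 to 70.8 and 71.7 to 75.9 in males, without overlap, while Wt1 and Lrrn4 had at most 6 counts in any library. Of the 3 delta cell markers Sst and Hhex were called lower, with sums of 4128 to 7262 and 2385 to 3465 CPM in females and 2282 to 3289 and 2516 to 3038 in males. Krt7 of the duct, Cd68 of the macrophage and Stab2 of the endothelial markers were called higher. The part of these cells in the rise of Aldh1a1 was not tested. With the acinar score as a covariate the log2 fold change of Aldh1a1 was 2.22 (adjusted p 1.23e-07). The score does not cover the cell types whose markers were called here.

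A single fit over the 33 islet libraries, added after the data were seen, tested whether the KO effect differed between the Clec16a and the Tfam islets. Of the 8 genes, 3 were called, against 16.3% of 19909 genes. The KO effect on Aldh1a3 was higher in the Clec16a islets by 5.67 on the log2 scale (SE 0.835, adjusted p 1.58e-05 by edgeR), and for Aldh1a1 the difference was -2.26 (SE 0.353, adjusted p 3.72e-05). For Rara the difference was -0.80 (SE 0.204, adjusted p 0.00626). For Dhrs3, called in both experiments on its own, the difference was -0.25 (SE 0.217, adjusted p 0.495). Without replicate 4 of the HFD KO group the values were 5.83 for Aldh1a3, -2.22 for Aldh1a1 and -0.91 for Rara, all still called. The experiments also differ in depth, in diet and in Xist, which was 302 to 534 CPM in all 19 Clec16a libraries, 429 to 932 in the Tfam libraries from females and at most 1.996 in those from males. These cannot be told apart from the targeted gene.

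**Figure D3:**
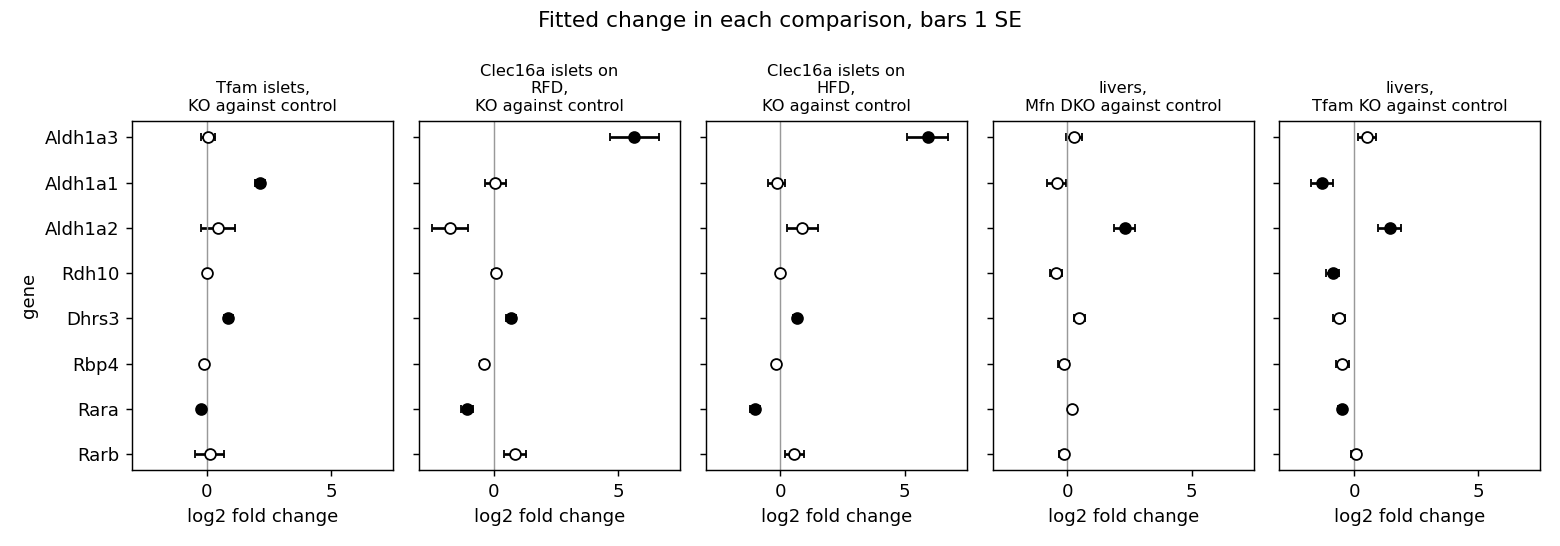
Log2 fold change, fitted by edgeR, of the 8 tested genes in each comparison with control; bars are 1 SE and filled points have an adjusted p of 0.05 or less. Aldh1a3 is filled in both Clec16a panels at 5.66 and 5.93, Aldh1a1 in the Tfam islets at 2.14 and, below 0, in Tfam KO livers, and Aldh1a2 in both liver panels.

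In livers the member of the family that rose was Aldh1a2, at low levels. Control livers had 0.106 to 0.431 CPM (median 0.316), Mfn DKO livers 0.953, 1.78, 1.96 and 1.52 CPM, and Tfam KO livers 1.62, 0.441 and 0.447 CPM. All Mfn DKO livers were above all controls, and so were the Tfam KO livers, 2 of them by a narrow gap. The group means were 0.309 ± 0.117 (SD, n = 6), 1.55 ± 0.437 (SD, n = 4) and 0.836 ± 0.680 CPM (SD, n = 3). The Mfn DKO log2 fold change was 2.31 (SE 0.430, adjusted p 0.00684 by edgeR), or 4.97-fold, and 1 of 8 genes was called against 9.87% of all 17024 genes. In Tfam KO livers it was 1.43 (SE 0.462, adjusted p 0.0350), and 4 of 8 genes were called against 29.3% of all genes. That second value rests on replicate 1: without it the log2 fold change was 0.51 (adjusted p 0.411). It was also lost without control replicate 2, 4, 5 or 6 (adjusted p 0.0554 to 0.0636). Mesothelial and stellate cells are known sites of Aldh1a2. None of the 4 mesothelial markers was called in either comparison, with sums of 3.12 to 6.18 CPM in control, 4.81 to 6.98 in Mfn DKO and 1.80 to 4.50 in Tfam KO livers. Of the 9 fibroblast and stellate markers 2 were called higher in Mfn DKO livers (Col1a1 and Col1a2), with sums of 330 to 391 CPM against 271 to 352 in control livers. In Tfam KO livers 2 were called higher and 1 lower, with sums of 274 to 323 CPM. The part of these cells in the result was not tested.

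Aldh1a1, the main retinal dehydrogenase transcript of liver, fell in Tfam KO livers. Control livers had 785 to 2465 CPM (median 1241), Mfn DKO livers 1274, 578, 1641 and 733 CPM, and Tfam KO livers 567.9, 511 and 658 CPM. All 3 Tfam KO livers were below all controls, while Mfn DKO livers overlapped both other groups. In Tfam KO livers Aldh1a1 fell by 1.29 on the log2 scale (SE 0.438, adjusted p 0.0418 by edgeR), and in Mfn DKO livers it was not called (adjusted p 0.495). Xist, which is made from the inactive X chromosome of females, was under 1 CPM in 3 control, 2 Mfn DKO and 1 Tfam KO livers and 380 to 788 CPM in the other 7. Control livers with low Xist had 1944, 1630 and 2465 CPM of Aldh1a1, and those with high Xist had 785, 835 and 853 CPM. The Mfn DKO livers split the same way, and the Tfam KO liver with low Xist, replicate 1 at 567.9 CPM, did not stand above the others of its group. In the authors' TPM the Tfam KO livers had 359.9, 431.0 and 358.5 of Aldh1a1, inside the control range of 340.3 to 1017, so the gap between these groups in CPM is not seen in TPM. With the Xist level as a covariate Aldh1a1 fell by 0.85 (SE 0.274, adjusted p 0.0358). The call was lost without control replicate 1, 2 or 6 or Tfam KO replicate 1 or 2 (adjusted p 0.0670 to 0.131), and without scaling of library sizes (-0.87, adjusted p 0.0939).

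**Figure D4:**
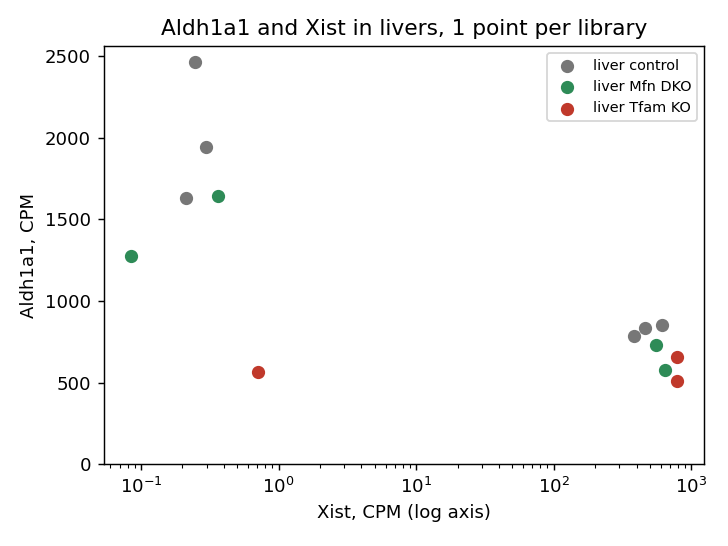
Aldh1a1 in CPM against Xist in CPM on a log axis, 1 point per liver library, coloured by group. The 5 control and Mfn DKO livers with Xist under 1 CPM lie between 1274 and 2465 CPM of Aldh1a1, and the 7 livers with high Xist lie between 511 and 853, as does the Tfam KO liver with low Xist at 567.9.

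Rdh10 and Rara were also called lower in Tfam KO livers. Rdh10, which oxidises retinol to retinal, was 32.3 to 37.8 CPM (median 37.0) in control, 28.1, 24.7, 23.9 and 30.1 CPM in Mfn DKO and 18.4, 9.35 and 32.0 CPM in Tfam KO livers. All Mfn DKO and Tfam KO livers were below all controls, and the Tfam KO livers spread widely. In the authors' TPM the values were 15.8 to 20.3 in control, 15.4 to 18.9 in Mfn DKO and 13.8, 9.37 and 20.7 in Tfam KO livers, and both groups overlapped the controls. In Tfam KO livers Rdh10 fell by 0.86 (SE 0.267, adjusted p 0.0293 by edgeR), and in Mfn DKO livers it was not called (adjusted p 0.250). Without Tfam KO replicate 2 it fell by 0.52 (adjusted p 0.0636), and without replicate 1 by 0.81 (adjusted p 0.0943). Without scaling it fell by 0.52 (adjusted p 0.0569). Rara was 16.5 to 24.7 CPM (median 20.2) in control and 12.81, 13.02 and 17.43 CPM in Tfam KO livers, where replicate 3 overlapped the controls. It fell by 0.49 (SE 0.155, adjusted p 0.0322) on scaled library sizes only: without scaling it was -0.08 (adjusted p 0.693), and mean TPM was 10.8 ± 1.63 in Tfam KO (SD, n = 3) and 9.92 ± 1.34 in control livers (SD, n = 6). The Rara call was lost without control replicate 1 or 2 or Tfam KO replicate 1 or 2 (adjusted p 0.0527 to 0.133). Hepatocyte marker sums were 87291 to 130562 CPM in control, 74846 to 93272 in Mfn DKO and 57043, 22692 and 91683 in Tfam KO livers. Of the 7 markers 2 were called lower in Tfam KO livers, where 29.3% of all genes were called in either direction. The part of hepatocytes in these results was not tested.

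Dhrs3 was 91.1 to 143 CPM (median 112) in control, 155, 152, 179 and 168 in Mfn DKO and 90.9, 39.9 and 95.7 CPM in Tfam KO livers. All Mfn DKO livers were above all controls, and Tfam KO replicates 1 and 2 were below them, replicate 1 by a narrow gap. In the authors' TPM the Tfam KO livers had 97.18, 56.77 and 87.99 of Dhrs3, against 66.65 to 103.0 in control livers. There only replicate 2 lay below the controls. Neither comparison with control called Dhrs3 (adjusted p 0.148 and 0.0649 by edgeR), while the Wald test of DESeq2 called it lower in Tfam KO livers (adjusted p 0.0342). Between Tfam KO and Mfn DKO livers 0 of the 8 genes were called, against 0.294% of all genes, and 2 (Dhrs3 and Rara) had an unadjusted p under 0.05. The Wald test of DESeq2 called both (adjusted p 0.00348 and 0.0129), and edgeR called them without Tfam KO replicate 3 (adjusted p 0.00739 and 0.00630), together with Rdh10. Rbp4, the secreted carrier, was 3693 to 4731 CPM in control, 3325 to 4008 in Mfn DKO and 3838, 1520 and 3542 CPM in Tfam KO livers, with replicate 2 far below the rest (adjusted p 0.708 and 0.185 against control). Rarb and Aldh1a3 were 1.93 to 3.29 and 0.484 to 1.85 CPM in all livers and were not called in either comparison with control.

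The rest of the pathway was followed in 52 further genes grouped by role. In the islets labelled Clec16a KO on RFD 6 of 35 tested genes were called, against 7.52% of all genes, and on HFD 5 of 35, against 9.57%. The 3 called lower on RFD and 2 of the 3 on HFD were alcohol and retinol dehydrogenases or reductases. That class holds 17 of the 52 genes, and so few calls cannot set it apart. Adh1, an alcohol dehydrogenase that also oxidises retinol, was 138.5 to 179 CPM in RFD control and 51.3 to 88.4 in RFD KO libraries. It fell by 1.24 on RFD and 1.04 on HFD (adjusted p 0.00348 and 0.00147 by edgeR). Dhrs4, a retinal reductase, fell by 1.05 and 0.80 (adjusted p 0.00348 and 0.00309). Among genes known to respond to retinoic acid, 2 of 8 tested were called higher on RFD, Hic1 (log2 fold change 1.27) and Cd38 (0.76), and 1 of 8, again Hic1 (0.85), on HFD. Bco1, which cleaves carotenoids to retinal, rose by 0.66 on HFD. Rbp2, a cellular retinol carrier of the gut, was called lower on HFD, and was 0.051 to 37.5 CPM (median 2.36) in control and 0 to 0.243 CPM in KO libraries. Of the 3 genes of retinoic acid breakdown only Cyp26b1 passed the filter in islets. Its log2 fold change was 2.01 on RFD, 1.24 on HFD and 1.21 in the Tfam islets, and it was not called (adjusted p 0.121, 0.315 and 0.247 by edgeR).

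In the Tfam islets 5 of 37 further genes tested were called, all higher, against 20.9% of all genes called in either direction. They included Rdh11, a retinal reductase (log2 fold change 0.57, adjusted p 6.5e-05), Adh7, a retinol-oxidising alcohol dehydrogenase (1.06), and Scarb1, a receptor that takes up carotenoids (0.33). Nrip1, a receptor cofactor that responds to retinoic acid, rose by 0.54. The medians of the further genes were 0.02 in the Tfam islets, 0.13 and 0.19 in the Clec16a islets on RFD and HFD, -0.08 in Mfn DKO livers and -0.25 in Tfam KO livers. Over all genes tested the medians lay between -0.0092 and 0.031. The 8 tested members had medians of 0.09, 0.08, 0.28, 0.02 and -0.48 in the same order.

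In livers 4 of 43 further genes were called in Mfn DKO livers, against 9.87% of all genes, and 16 of 43 in Tfam KO livers, against 29.3%. Dhrs9, which oxidises retinol, was 0.258 to 0.528 CPM in control, 3.51 to 6.90 in Mfn DKO and 2.11 to 4.77 in Tfam KO livers, without overlap with control. Its log2 fold changes were 3.83 and 3.11 (adjusted p 3.0e-05 and 0.000133 by edgeR). Dhrs4 fell in both, by 0.79 and 1.08. Lpl, a lipase that frees retinol from lipoproteins, rose by 2.05 in Mfn DKO livers. In Tfam KO livers Tgm2, a classical target of retinoic acid, rose by 1.24, and Bco1 by 1.499. Of the 15 dehydrogenases and reductases tested there, 5 were called lower and 1 higher. Of the 3 genes that break down retinoic acid, Cyp26a1 was called lower, at 12.3 to 27.1 CPM in control and 0.597 to 5.59 in Tfam KO livers.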

How the data were processed

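Per the file headers each library's table held counts, TPM and CPM for every gene. The deposited counts were whole numbers, and the authors' CPM equalled the count over the library total. The authors' TPM were used for levels between genes and tissues and, where named, beside CPM, and in no test. The submitters' processing notes name STAR 2.6.1b, RSEM 1.3.1, featureCounts, FastQC, MultiQC, DESeq2 and GRCm38, with no roles. The strand setting is not given in the sources used here. Positions come from GENCODE M21, in which 55227 of 55487 identifiers were found.

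Groups were taken from the sample descriptions. Titles number the libraries as biological replicates without naming animals, so p-values measure the spread between these samples. Each experiment was fitted alone in edgeR 4.0.16 (R 4.3.3), by its quasi-likelihood test: TMM scaling, filterByExpr on the group, two-sided, Benjamini-Hochberg over all genes, called at 0.05. Pooled Tfam islets had sex as a term. SE is the log2 fold change over the square root of F. Alternatives were DESeq2 1.42.0 size factors and Wald test, no filter, the replicate block, acinar score, lane, Xist, no sex term, each library left out, and, added after seeing the data, no scaling, the fit over both islet experiments and correlations without replicate 4 of the Clec16a KO islets on HFD. The procedure was tested on simulated data. The members, the 52 further retinoid genes and the marker lists were chosen with earlier results of these data known. Of the 52, at most the 4 called genes with the smallest adjusted p were named per comparison, and 1 result under this rule is not reported here. Hic1 on HFD and Cyp26a1 in livers fall outside that rule and were named after their values were seen. Lanes were read from file names. Correlations used log2 CPM with a prior count of 2. No 2 libraries of a group agreed within sampling noise.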

Additional observations from a re-analysis of the deposited data

Results flagged for a closer look

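Of 63 sets of values, 1 gene in 1 group of 4 to 6 libraries each, 3 held a library whose gap to the others was large for the group's range. Chance alone flags about 1 in 20 such groups. Aldh1a2 was 0.7459 CPM in replicate 4 of the female Tfam control islets, against 0.0362 to 0.189 CPM in the other 4. Rbp4 was 203.6 CPM in replicate 1 of the female Tfam KO islets, against 157 to 162 CPM in the other 3. Aldh1a2 was 0.5985 CPM in replicate 1 of the islets labelled Clec16a KO on HFD, against 0.118 to 0.218 CPM in the other 4. Aldh1a2 was not called in any islet comparison, and Rbp4 was not called in any comparison.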

How the results depend on the processing

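The 17 calls on single genes kept their sign under all 250 alternative values, stayed called in 210 and missed the threshold in 40, and 9 of the calls held throughout. The calls of the fit over both islet experiments faced only 4 alternatives each, with no Wald test, replicate block, lane or acinar score. Only 1 of these left out a library. Of the results not called, 65 were called under no alternative (26 of them changed sign) and 6 under at least 1. The number of genes called among the 8 tested, 1 in Mfn DKO livers, was 0 with the replicate block and 2 without scaling of library totals. In Tfam KO livers it was 4, and 0 with the replicate block, 2 without scaling, and 0 to 5 when each library was left out in turn. Between Tfam KO and Mfn DKO livers it was 0, and 2 with the Wald test of DESeq2, 1 without scaling, and 0 to 3 when each library was left out. With the replicate block adjusted p was 0.0909 for Aldh1a2 in Mfn DKO livers, 0.0911 to 0.194 for the 4 calls in Tfam KO livers, 0.0669 and 0.0519 for Dhrs3 in the Clec16a islets on RFD and HFD, and 0.103 for Rara in the Tfam islets. It changed no other call. Replicate numbers showed no clear pairing: the median correlation of same-numbered libraries was 0.065, -0.016 and 0.087 in the Tfam islets, Clec16a islets and livers. The single values ran from -0.096 to 0.212, -0.254 to 0.307 and -0.343 to 0.35. So few pairs cannot exclude a pairing. Rara in the Tfam islets was also lost without a filter (adjusted p 0.0939) and without the sex term (0.131). Without scaling, Dhrs3 in Mfn DKO livers (0.69, adjusted p 0.0234) and Aldh1a3 in Tfam KO livers (1.01, 0.0433) were called. Over all genes, the count called moved by over 1.5 times with the replicate block in livers (1681 to 169, 4992 to 395 and 50 to 6, for Mfn DKO, Tfam KO and the pair), with the Wald test (1681 to 2870, 50 to 1087, diet 7 to 54 and 2 to 42) and without scaling (Tfam islets 4119 to 6825, Tfam KO livers 4992 to 8151, the pair 50 to 1226). On HFD the 1652 genes called became 975 with the block. Leaving out 1 library gave 523 to 838 for 6 of 8 on RFD, 686 to 1054 for 7 of 10 for Mfn DKO, 2504 without Tfam KO replicate 2, and 4204 for the pair without Tfam KO replicate 3. The genotype by sex term called 0 genes, and 30 without a filter and 36 with the block. The causes were not tested. With 3 Tfam KO livers and 2 male Tfam KO islet libraries, small differences were not detectable there, and Aldh1a2, Rarb and Crabp2 lie near the counting floor in islets.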

Other observations

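In the Tfam control islets Rbp4 was 211, 206, 198, 246 and 160 CPM in females and 114, 111 and 129 CPM in males, without overlap. Summed delta cell markers (Sst, Hhex and Ghsr) were 4128 to 7262 CPM in the same female and 2282 to 3289 CPM in the same male libraries. Summed alpha cell markers were 47836 to 102536 and 23160 to 32640 CPM. Sex was not compared in controls, and the part of delta and alpha cells in the Rbp4 level was not tested.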
